A study of Mus musculus with 12 samples.

Results

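The mitochondrial genome (mtDNA) is a small circular chromosome with its own transcripts, and the 37 genes it encodes are described here. They were taken as every row of the RPKM table whose symbol starts with mt-, which gave 37 of 28793 rows. RPKM is the number of reads on a gene scaled to its length and to the depth of the library, which puts genes of different length on a common scale. Whether that scale holds for genes as short as the transfer RNAs, of 59 to 75 bases, was not tested. The rows fall into 3 classes: 13 protein-coding genes, 2 ribosomal RNA (rRNA) genes and 22 transfer RNA (tRNA) genes. All mice were C57BL/6, aged 3 months, and differed in Tert, which encodes the catalytic subunit of telomerase; large intestinal crypts were the source of every library. Stem and progenitor cells sorted for GFP were sequenced in 3 heterozygous libraries (Tert HET) and in 3 of the third null generation, called null G3. Crypt epithelial cells that were not sorted were sequenced in 2 heterozygous libraries, in 2 of the fourth null generation, called null G4, and in 2 of generation 4 with Tert labelled as reactivated. The labels mark the reactivated libraries with tam and do not name the agent, the allele that carries GFP, or any pooling of animals.

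Both strands of mtDNA are transcribed as long precursors, and the tRNAs that lie between the other genes are cut out of them, which frees the rRNAs and mRNAs. The heavy-strand precursor holds the rRNAs, most tRNAs and all mRNAs but mt-Nd6, which is read from the other strand together with 8 of the 22 tRNAs. The mRNAs encode core subunits of the respiratory chain and of ATP synthase, whose remaining subunits are nuclear genes, and the rRNAs and tRNAs serve the ribosome that translates those mRNAs inside the organelle. In the large intestine, stem cells near the base of each crypt divide, and their daughters mature as they move towards the surface.

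Labels and libraries were checked first. Tert was listed at 0.251 to 0.459 RPKM in the unsorted heterozygous libraries and at 0.00778 to 0.0377 in the 4 other unsorted libraries. In the sorted set it was at 0.0424, 0.0583 and 0.169 RPKM with the heterozygous label and at 0, 0.0787 and 0.00131 RPKM with the null G3 label, so these ranges overlap and Tert does not check the sorted labels. Lgr5, the defining stem cell marker, was at 3.40 to 4.74 RPKM in 5 sorted libraries and at 0.453 to 0.928 in the unsorted ones. The remaining sorted library, null G3 replicate 1, stood apart with Lgr5 at 0.121, the proliferation marker Mki67 at 4.74 and Sis, a gene of small intestinal enterocytes, at 372 RPKM. Elsewhere in the sorted set Sis was at 1.37 to 2.0 RPKM. Summed Y-linked genes (Ddx3y, Eif2s3y, Kdm5d and Uty) were at 18.2 to 18.9 RPKM in both unsorted heterozygous libraries and reactivated replicate 2. They were at 8.54 in sorted null G3 replicate 2 and at 0.00647 to 0.0562 in the remaining 8 libraries. Both unsorted heterozygous libraries therefore carried Y-linked RNA and both null G4 libraries did not, so genotype and sex cannot be told apart in that comparison. Values are given for 25686 genes in the sorted set and 27658 in the unsorted set, and the sets appear to have been normalized separately.

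Mitochondrial rRNA took a larger share of the sorted than of the unsorted libraries. The 2 rRNAs together made up 41.4%, 38.7% and 53.6% of summed RPKM in the sorted heterozygous libraries and 71.9%, 64.4% and 46.8% in the sorted null G3 libraries. In unsorted cells the rRNA share was 19.2% and 27.3% in the heterozygous libraries, 12% and 11.9% with null G4 and 10.8% and 16.7% with reactivated Tert. Every sorted library lay above every unsorted library. The mean share was 52.8% ± 13.2 (SD, n = 6) in sorted and 16.3% ± 6.29 (SD, n = 6) in unsorted libraries, a difference of 36.5 percentage points (exact permutation test, two-sided, p = 0.00216, the smallest this design can give; adjusted p = 0.00325 over 3 classes). In the heterozygous libraries alone the means were 44.6% ± 7.94 (SD, n = 3) and 23.3% ± 5.77 (SD, n = 2), with an exact permutation p of 0.20, which is the smallest p that 3 libraries against 2 can reach. Without null G3 replicate 1 the difference over all libraries was 32.6 percentage points (exact permutation test, adjusted p = 0.00649). In such bulk samples fewer cells of a type and less RNA per cell cannot be told apart.

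The other classes behaved differently from the rRNAs. The 13 mRNAs together took 3.06% to 7.09% of summed RPKM in sorted libraries and 2.51% to 4.99% in unsorted libraries. These ranges overlap, and the difference of 1.52 percentage points did not pass (exact permutation test, p = 0.0563). The 22 tRNAs took 0.0358% to 0.0659% in sorted libraries against 0.0709% to 0.173% in unsorted ones, the opposite direction to the rRNAs. The mean tRNA share was 0.0489% ± 0.0112 (SD, n = 6) in sorted and 0.111% ± 0.0359 (SD, n = 6) in unsorted libraries (exact permutation test, p = 0.00216; adjusted p = 0.00325). The tRNA difference rests on what it is divided by. As a share of the sum without rRNA rows it was -0.0224 percentage points and as a share of estimated reads it was -7.29e-04, and neither passed (adjusted p = 0.491 and 0.156). The protein-coding share passed in both of those readings, at 7.26 percentage points (adjusted p = 0.0130) and 2.20 percentage points (adjusted p = 0.00649). Those readings were not taken in heterozygous libraries alone. There the mean mRNA share of summed RPKM was 4.61% ± 2.17 (SD, n = 3) in sorted and 4.19% ± 1.12 (SD, n = 2) in unsorted libraries, a difference of 0.414 percentage points. The tRNA means were 0.0517% and 0.141% (exact permutation p = 0.20, the smallest that 3 libraries against 2 can reach).

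**Figure D1:**
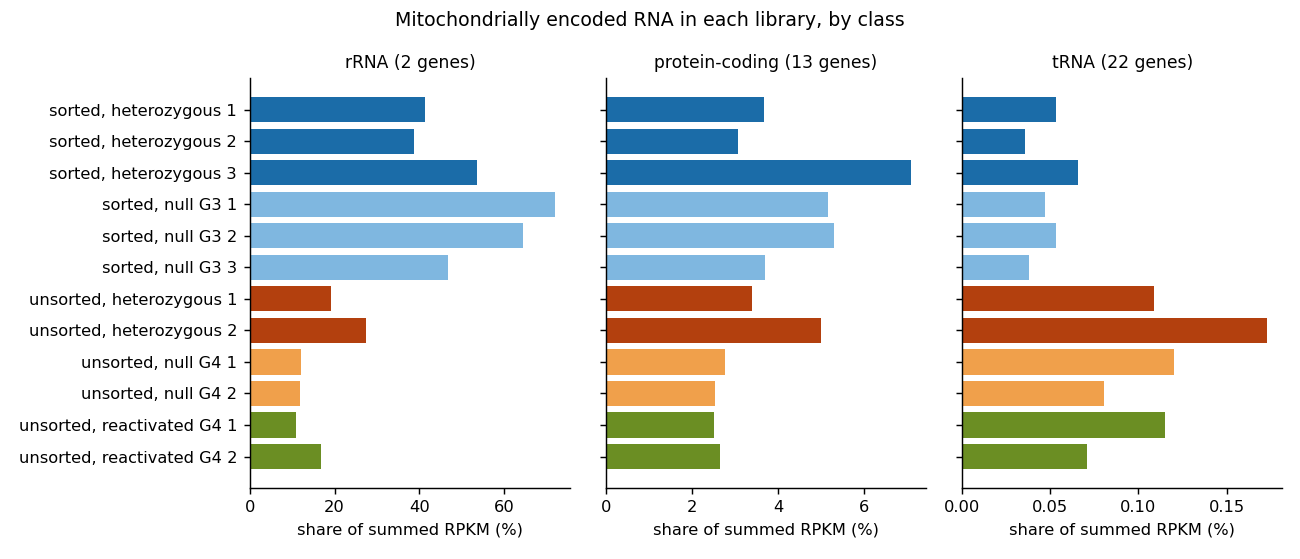
Each bar is 1 library, and its length is the share of summed RPKM taken by the mitochondrial rRNAs, mRNAs or tRNAs (linear axes that start at 0 and differ between panels). The rRNA bars of the 6 sorted libraries (38.7% to 71.9%) all exceed those of the 6 unsorted libraries (10.8% to 27.3%), while the tRNA bars run the other way.

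The rows were next removed and each library was rescaled to the sum of its nuclear genes. All mitochondrial rows together held 41.8% to 77.1% of summed RPKM in sorted and 13.5% to 32.5% in unsorted libraries, so nuclear RPKM rose by a factor of 1.72 to 4.36 in sorted and of 1.16 to 1.48 in unsorted libraries. Sorted null G3 replicate 1 changed most. Its nuclear genes at 1 RPKM or more numbered 5400 before and 9327 after rescaling, whereas the other sorted libraries went from 7695 to 9121 genes to 10409 to 11367. Estimated reads, taken as RPKM times exonic length, put 24% to 42.9% of the library total on mtDNA in sorted and 4.59% to 12.5% in unsorted libraries. Sorted libraries were above unsorted ones on this scale too.

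Of the rRNAs, mt-Rnr1 encodes the 12S RNA of the small subunit of the mitochondrial ribosome and mt-Rnr2 the 16S RNA of the large subunit. In sorted libraries their levels were alike. The level of mt-Rnr1 was 85957, 84441 and 103546 RPKM in the heterozygous and 168383, 145705 and 92665 RPKM in the null G3 libraries, and that of mt-Rnr2 was 90806, 89218 and 105860 RPKM and 149712, 125461 and 102317 RPKM. The ratio of mt-Rnr2 to mt-Rnr1 was 0.861 to 1.10 across the 6 sorted libraries. In unsorted libraries mt-Rnr2 was the more abundant, at 36429 and 58117 RPKM (heterozygous), 22149 and 23567 (null G4) and 20779 and 30689 (reactivated). There mt-Rnr1 was at 9678 and 14689, 5280 and 5279, and 4678 and 8915 RPKM in the same order. The ratio of mt-Rnr2 to mt-Rnr1 was 3.44 to 4.46 in unsorted libraries, with no overlap with the sorted ones.

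Levels of the 13 mRNAs differed widely within each library, although all but mt-Nd6 are cut from the heavy-strand precursor. For complex I, the NADH dehydrogenase, the medians over 6 sorted and 6 unsorted libraries were 2310 and 747 RPKM for mt-Nd1, 1358 and 166 for mt-Nd5, 1078 and 123 for mt-Nd4, 599 and 92.7 for mt-Nd2 and 539 and 42.5 for mt-Nd6. The remaining complex I genes were far lower, with medians of 33.2 and 0.210 RPKM for mt-Nd4l and 1.97 and 0.985 for mt-Nd3. The complex III gene mt-Cytb, which encodes cytochrome b, had medians of 3571 and 590 RPKM. For complex IV, mt-Co1, the catalytic subunit of cytochrome c oxidase, had the highest level of the 13 in all 12 libraries, with medians of 9223 and 4650 RPKM. Its partners mt-Co2 and mt-Co3 had medians of only 66.0 and 4.16 RPKM and of 17.3 and 5.88 RPKM. The ATP synthase genes mt-Atp6, a subunit of the proton channel, and mt-Atp8 had medians of 62.7 and 1.80 RPKM and of 34.5 and 0.667 RPKM.

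Single libraries showed the same spread. In the sorted heterozygous libraries mt-Co1 was at 7466, 6538 and 13415 RPKM and mt-Cytb at 3106, 2754 and 5207 RPKM. In the sorted null G3 libraries they were at 11281, 10980 and 7386 RPKM and at 4074, 4036 and 3072 RPKM. Heterozygous replicate 3 was the highest of the 6 sorted libraries for both genes, as it was for mt-Nd1 (2961 RPKM), mt-Nd2 (977 RPKM), mt-Nd4 (1956 RPKM), mt-Nd5 (2186 RPKM), mt-Co2 (89.9 RPKM) and mt-Nd4l (56.7 RPKM). For mt-Nd6, mt-Atp8 and mt-Nd3 the highest sorted library was null G3 replicate 2 (756, 57.2 and 2.86 RPKM), and for mt-Atp6 and mt-Co3 it was null G3 replicate 1 (95.7 and 33.1 RPKM). In unsorted cells mt-Co1 was at 5927 and 9804 RPKM (heterozygous), 4705 and 4525 RPKM (null G4) and 4594 and 4415 RPKM (reactivated), and mt-Cytb at 776 and 1162, 549 and 512, and 412 and 631 RPKM. Heterozygous replicate 2 was the highest unsorted library for both rRNAs and for 12 of the 13 mRNAs, the exception being mt-Nd4l.

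The order of levels held steps and ties. In sorted libraries mt-Rnr2 and mt-Rnr1 overlapped, mt-Co1 stood below both and above mt-Cytb with no overlap, and from mt-Cytb down to mt-Nd6 each gene overlapped the one above it. A gap then separated mt-Nd6 (lowest library 375 RPKM) from mt-Co2 (highest library 89.9 RPKM), and mt-Nd3 lay below all the others. In unsorted libraries mt-Rnr1 overlapped mt-Co1, a gap again lay under mt-Nd6 (lowest library 30.2 RPKM), above mt-Co3 (highest library 12.1 RPKM), and mt-Nd4l was lowest, at 0 to 0.314 RPKM. Higher up, mt-Co1 (lowest library 4415 RPKM) did not overlap mt-Nd1 (highest library 1580 RPKM) there. Nor did mt-Cytb (lowest library 412 RPKM) overlap mt-Nd5 (highest library 246 RPKM). The same 6 mRNAs lay below the gap under mt-Nd6 in both sets: mt-Co2, mt-Atp8, mt-Atp6, mt-Co3, mt-Nd3 and mt-Nd4l. On mtDNA these 6 follow one another with only tRNAs between them.

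**Figure D2:**
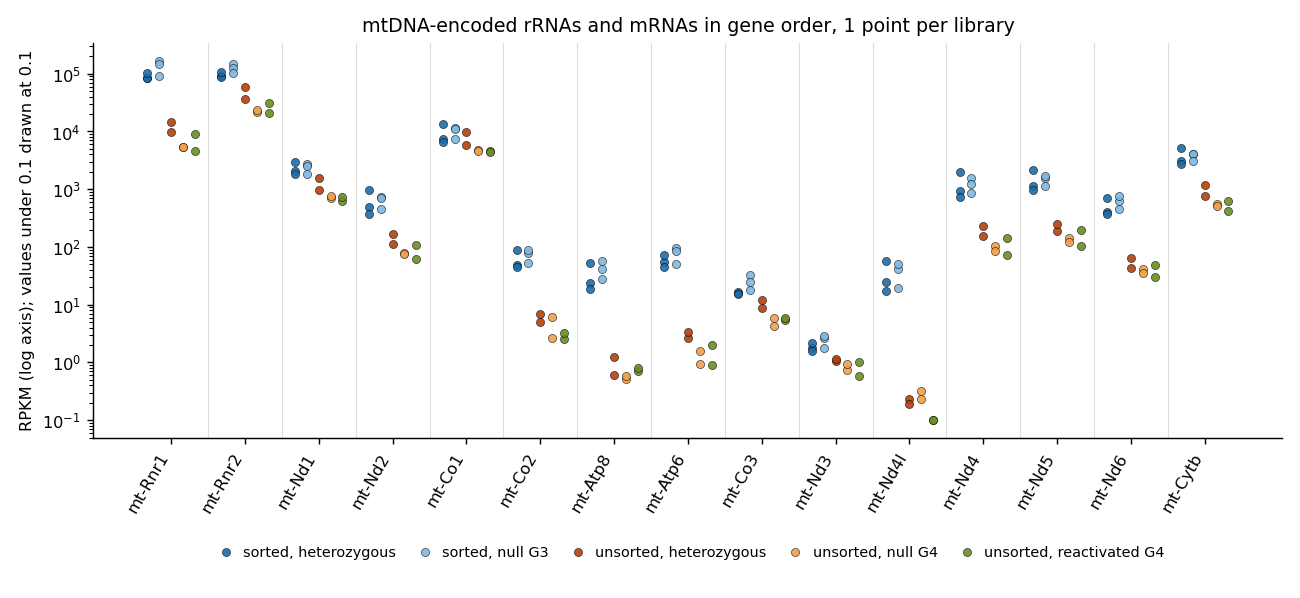
Points give RPKM of the 2 rRNAs and 13 mRNAs in each library on a log axis, with genes in their order on mtDNA and colours for the 5 groups. From mt-Co2 to mt-Nd4l all sorted points lie at or below 95.7 RPKM, whereas the other mRNAs lie at 369 RPKM or more.

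The same 6 genes were then compared with nuclear copies of mtDNA, which are stretches of mitochondrial sequence that were inserted into nuclear chromosomes during evolution. In the GENCODE M21 annotation (GRCm38, the assembly also called mm10) 7 annotated copies lie in 1 block on the minus strand at chr1:24611535-24616197, which is 4663 bases long. The block runs from Gm29216, a copy of part of mt-Co1, through Gm28661 (mt-Co2), Gm10925 (mt-Atp6), Gm28437 (mt-Co3), Gm28438 (mt-Nd3) and Gm10222 (mt-Nd4l) to Gm28439, a copy of part of mt-Nd4. Aligned to their mitochondrial counterparts, 6 of these copies were 100% identical and Gm29216 was 99.8% identical. No copy of mt-Atp8 is annotated, but 233 bases lie between Gm10925 and Gm28661, where mtDNA has 230 bases between mt-Co2 and mt-Atp6 that hold most of mt-Atp8. Other copies have drifted further: Gm13340 (mt-Co1) and Gm13341 (mt-Co2) on chromosome 2 were each 97.6% identical.

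The difference between the copies can be read in a 60-base window of mt-Co2 and its 2 annotated copies, chosen as the window with the most differences in the chromosome 2 copy. Capitals mark bases that differ from mt-Co2, and all 3 sequences are from the GENCODE M21 transcripts, written 5′ to 3′ in the sense of the gene. The positions on GRCm38 are chrM:7457-7516 (plus strand), chr1:24615062-24615121 (minus strand) and chr2:22587471-22587530 (minus strand).
mt-Co2: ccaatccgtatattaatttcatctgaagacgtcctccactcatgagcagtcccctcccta
Gm28661: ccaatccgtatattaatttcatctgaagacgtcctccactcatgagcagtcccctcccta
Gm13341: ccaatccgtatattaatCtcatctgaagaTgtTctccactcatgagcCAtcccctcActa
The chromosome 1 copy shows 0 differences in the window and the chromosome 2 copy shows 6.

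The low mRNAs differed from most others in how much sequence they share with annotated nuclear transcripts. Of all 50-base stretches of a gene, 100% occurred in a nuclear transcript for mt-Co2, 99.9% for mt-Co3, 99.5% for mt-Atp6, 98.8% for mt-Nd4l and 98.0% for mt-Nd3. The share was 62.2% for mt-Nd4, 51.1% for mt-Co1, 8.19% for mt-Nd2 and 7.61% for mt-Nd5, and it was 0% for mt-Nd1, mt-Nd6, mt-Cytb and mt-Atp8. All 5 genes at 98.0% or more lay below the gap in level under mt-Nd6 in both sets, and the 7 genes above that gap had shares of 0% to 62.2%. The exception was mt-Atp8, which lay under the gap with a share of 0%, and whose stretch of mtDNA lies opposite the part of the chromosome 1 block that has no annotated transcript. With 100-base stretches the 5 genes kept 97.6% to 99.9%, mt-Nd4 had 60.8% and mt-Co1 30.8%. For the rRNAs the share of 50-base stretches was 0% (mt-Rnr1) and 1.04% (mt-Rnr2), and it was 0% for all 22 tRNAs. The treatment of reads that match more than 1 place is not stated, so levels of the 5 genes, and of parts of mt-Nd4 and mt-Co1, are uncertain, and whether shared sequence lowered them was not tested.

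**Figure D3:**
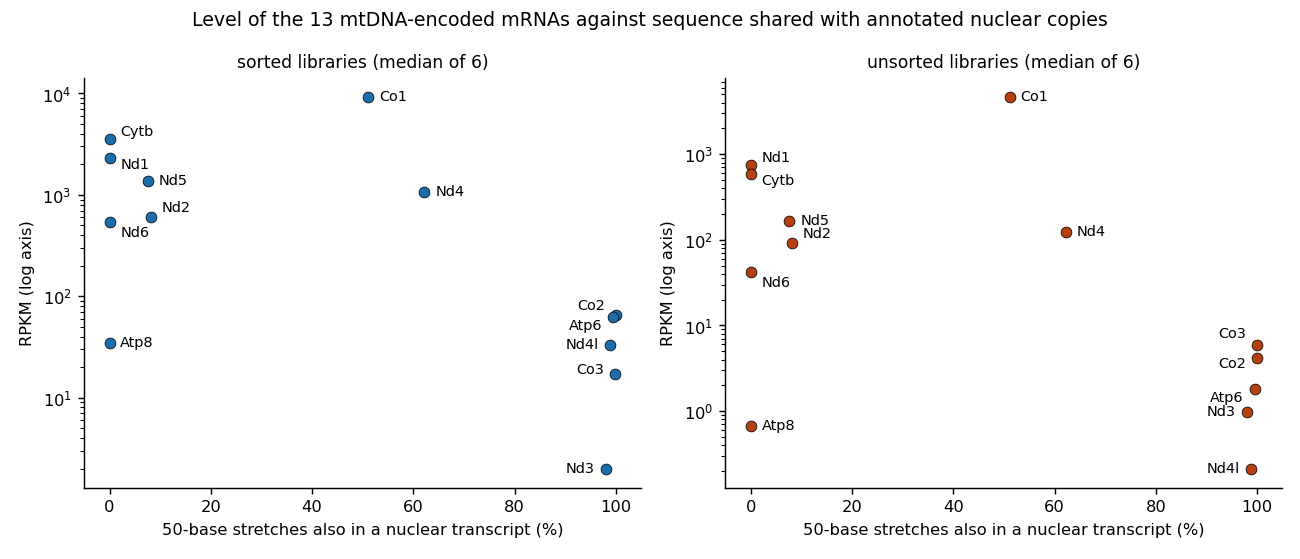
Each point is 1 of the 13 mRNAs, with the percentage of its 50-base stretches that also occur in an annotated nuclear transcript on the x axis and its median RPKM over 6 libraries on a log y axis. The 5 genes at 98.0% or more lie at the bottom right of both panels, and mt-Atp8, with a share of 0% and a median of 34.5 RPKM in sorted libraries, lies low at the left.

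Some nuclear copies have rows of their own in the table. Gm10222, the copy of mt-Nd4l, was at 22.3 to 83.9 RPKM in sorted and 1.18 to 2.40 RPKM in unsorted libraries, close to mt-Nd4l itself in the sorted set (17 to 56.7 RPKM) and above it in the unsorted set (0 to 0.314 RPKM). Gm13340 was at 13.1 to 49.7 RPKM in sorted and 2.78 to 7.14 RPKM in unsorted libraries, and Gm20594, similar to part of mt-Rnr2, at 10.4 to 26 and 0.862 to 2.79 RPKM. Gm13341 (mt-Co2) was at 1.96 to 4.65 RPKM in sorted and 0.493 to 1.73 in unsorted libraries. The copies Gm4076 and Gm11407 (mt-Nd5), Gm13339 (mt-Nd2) and Gm11512 (mt-Co1) stayed at or below 4.48 RPKM in all libraries.

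The tRNAs were the least evenly listed class. Of 22, all had rows for the sorted libraries and 18 for the unsorted ones, since mt-Td, mt-Tk, mt-Ts2 and mt-Tl2 are listed for the sorted set only. In the unsorted libraries 7 tRNAs were listed at 0 throughout, where 1 read on a gene of 68 bases would be worth about 0.14 to 0.20 RPKM. Only mt-Tc, mt-Tn and mt-Tp reached 1 RPKM in all 6 unsorted libraries, against 7 tRNAs in all 6 sorted libraries. Use of the strand in counting is not stated, so reads of mt-Nd6 and of the 8 light-strand tRNAs, mt-Tc, mt-Tn and mt-Tp among them, cannot be told apart from reads of the opposite strand. Nor does RPKM of a tRNA gene separate reads of the cut-out tRNA from reads of a longer precursor that holds it.

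Which tRNAs were high differed between the sets. The proline tRNA mt-Tp was at 81.6, 52.6 and 78.5 RPKM in sorted heterozygous, 127, 76.9 and 59.5 in sorted null G3 libraries. Without sorting it was at 130 and 178 RPKM with a heterozygous genotype, at 96.8 and 91.0 as null G4 and at 115 and 81.3 after reactivation. It was high everywhere. The cysteine tRNA mt-Tc was at 6.84 to 31.3 RPKM in sorted and 61.4 to 210 RPKM in unsorted libraries, and the asparagine tRNA mt-Tn at 1.81 to 17.3 and 23.0 to 67.5 RPKM. Neither pair of ranges overlapped. The reverse held for mt-Tl1, a leucine tRNA, at 33.8 to 55.4 RPKM in sorted libraries and listed at 0 in all unsorted ones, and for the phenylalanine tRNA mt-Tf, at 26 to 64.7 against 0 to 1.02 RPKM. On mtDNA, mt-Tf and mt-Tl1 flank the rRNA genes, before mt-Rnr1 and after mt-Rnr2. The valine tRNA mt-Tv, which lies between the rRNA genes, was at 0.139 to 3.06 RPKM in sorted libraries.

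Sequences are shown for these 5 tRNAs, whose levels set the sorted and unsorted libraries apart or were high throughout, and for the methionine tRNA mt-Tm, the 1 tRNA called in unsorted null G4 against heterozygous libraries. They are from the GENCODE M21 transcripts, 5′ to 3′ in the sense of the gene, with T for U, and capitals mark the anticodon. On GRCm38 they lie at chrM:1-68 (mt-Tf), chrM:2676-2750 (mt-Tl1), chrM:3845-3913 (mt-Tm), all on the plus strand, and at chrM:5089-5159 (mt-Tn), chrM:5192-5257 (mt-Tc) and chrM:15356-15422 (mt-Tp), all on the minus strand.
mt-Tf: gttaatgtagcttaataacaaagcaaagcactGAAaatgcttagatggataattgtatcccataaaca
mt-Tl1: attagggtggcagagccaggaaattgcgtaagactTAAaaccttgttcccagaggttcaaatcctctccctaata
mt-Tm: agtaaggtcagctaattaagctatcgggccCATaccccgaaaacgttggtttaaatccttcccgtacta
mt-Tn: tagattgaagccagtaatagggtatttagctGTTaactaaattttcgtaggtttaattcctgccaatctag
mt-Tc: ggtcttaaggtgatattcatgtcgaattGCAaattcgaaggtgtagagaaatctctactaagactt
mt-Tp: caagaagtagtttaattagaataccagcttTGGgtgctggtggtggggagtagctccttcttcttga
The 3 tRNAs that were high in unsorted libraries (mt-Tn, mt-Tc and mt-Tp) are read from the minus strand and the 2 that were high in sorted libraries alone (mt-Tf and mt-Tl1) from the plus strand. Their neighbours on the minus strand, mt-Ta and mt-Ty, were at 0 to 0.292 RPKM in unsorted libraries.

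**Figure D4:**
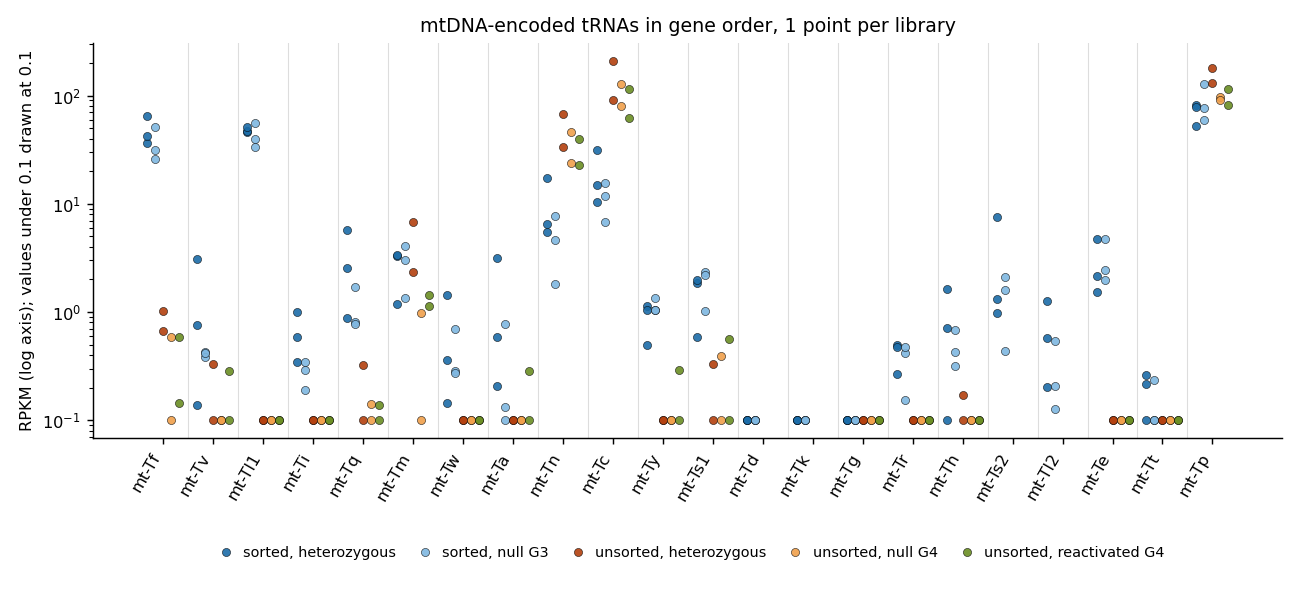
Points give RPKM of the 22 tRNAs in each library on a log axis, in their order on mtDNA, with values under 0.1 drawn at 0.1; the 4 tRNAs without rows for the unsorted set show sorted points only. Sorted points are high for mt-Tf and mt-Tl1, unsorted points are high for mt-Tn and mt-Tc, and all are high for mt-Tp.

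Proportions among mitochondrial transcripts were next compared within libraries. Such ratios do not depend on how a library was scaled, and they were chosen after levels had been seen, so they are given without a test. The gene mt-Co1 made up 47.4% to 49.4% of summed mRNA RPKM in sorted and 70.1% to 77.9% in unsorted libraries, and its ratio to mt-Cytb was 2.37 to 2.77 against 6.99 to 11.1. The ratio of mt-Nd6, the light-strand mRNA, to mt-Cytb was 0.128 to 0.187 in sorted and 0.0554 to 0.0773 in unsorted libraries. The ratio of mt-Nd5 to mt-Nd1 was 0.540 to 0.738 against 0.156 to 0.268, that of mt-Rnr1 to mt-Nd1 was 35.0 to 61.9 against 7.04 to 12, and that of summed rRNA to summed mRNA was 7.56 to 13.9 against 4.32 to 6.29. None of these pairs of ranges overlapped. The ratio of mt-Rnr2 to mt-Nd1 did overlap, at 35.7 to 55.8 and 31.4 to 41.3. RNAs without a poly(A) tail moved with the sets as well: 11 such nuclear RNAs, led by Rn7sk, Rpph1 and Rmrp, summed to 4.69 to 28.0 RPKM in sorted and 11261 to 28524 RPKM in unsorted libraries. Heterozygous libraries alone, 3 sorted and 2 unsorted, showed the same gaps. There the ratio of mt-Rnr2 to mt-Rnr1 was 1.02 to 1.06 against 3.76 to 3.96, mt-Co1 made up 47.4% to 48.4% against 72.5% to 73.8% of summed mRNA RPKM, and its ratio to mt-Cytb was 2.37 to 2.58 against 7.64 to 8.44. Sorting and anything else that differed between the sets, such as how libraries were prepared, cannot be told apart, and the part of RNAs without a poly(A) tail was not tested.

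In sorted cells the question was whether Tert null G3 differed from heterozygous cells, and no mitochondrial gene passed. All 26 members that reached 1 RPKM in at least 3 sorted libraries were tested with limma on log2(RPKM + 1) over 8734 genes: 13 mRNAs, 2 rRNAs and 11 tRNAs. A gene was called at an adjusted p under 0.05. Called members numbered 0, and called genes of the whole table were 0 (0%), with 143 genes (1.64%) and 0 members at an unadjusted p under 0.05. The estimated log2 differences were 0.53 (SE 0.35) for mt-Rnr1 and 0.39 (SE 0.32) for mt-Rnr2, both with a limma adjusted p of 0.481. For the mRNAs they were 0.57 (SE 0.40) for mt-Co3, 0.47 for mt-Atp8, 0.41 for mt-Atp6, 0.34 for mt-Nd6, 0.30 for mt-Co2, 0.27 for mt-Nd3, 0.25 for mt-Nd4l, 0.16 for mt-Co1, 0.12 for mt-Nd2, 0.11 for mt-Nd4 and mt-Nd5, 0.07 for mt-Nd1 and 0.06 for mt-Cytb. All 13 estimates were above 0 with a median of 0.25, while the median of all tested genes was -0.46. The side of 0 depended on single libraries: without heterozygous replicate 2, 6 estimates were above and 7 below 0 with a median of -0.04, and without heterozygous replicate 1 there were 10 above and 3 below. Without null G3 replicate 2, or with a term for sex, 11 were above and 2 below 0 with a median of 0.08. With libraries rescaled to nuclear genes the mRNA median was 0.86, and the median of all tested genes was -0.08.

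Among the tRNAs 5 estimates were above and 6 below 0 in sorted cells. Those of smallest unadjusted p were mt-Tq (-0.79, SE 0.45), mt-Tn (-0.90, SE 0.54), mt-Tc (-0.61, SE 0.50) and mt-Ts2 (-0.58, SE 0.56), with limma adjusted p between 0.481 and 0.486. Levels overlapped between the genotypes for 12 of the 13 mRNAs and for all rRNAs and tested tRNAs. The exception was mt-Co3, at 16.1, 16.8 and 15.5 RPKM in the heterozygous set and 33.1, 24.5 and 17.7 RPKM in the null G3 set. Of all 8734 tested genes 0.114% were higher in all null G3 than in all heterozygous libraries and 12.6% were lower. Null G3 replicate 1, the library that stood apart, also had the highest rRNA share (71.9%), and null G3 replicate 2, the one with Y-linked RNA, the next highest (64.4%). Without replicate 1 the median mRNA difference was 0.12, with 10 estimates above and 3 below 0, and the rRNA differences were 0.25 and 0.35.

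In unsorted cells 2 mitochondrial genes fell in Tert null G4 against heterozygous libraries. Tested were 17 members: 11 mRNAs, 2 rRNAs and 4 tRNAs, while mt-Atp8 and mt-Nd4l did not reach 1 RPKM in 2 libraries. The level of mt-Co3, a core subunit of cytochrome c oxidase, was 8.79 and 12.1 RPKM in the heterozygous pair, 5.81 and 4.35 RPKM in the null G4 pair and 5.38 and 5.95 RPKM in the reactivated pair. Both null G4 libraries lay below both heterozygous ones, and mt-Co3 fell by 0.91 on the log2 scale (SE 0.20, limma adjusted p = 0.0442). The methionine tRNA mt-Tm was at 6.84 and 2.32 RPKM in the heterozygous pair, 0.975 and 0 RPKM in the null G4 pair and 1.14 and 1.42 RPKM in the reactivated pair. It fell by 1.86 (SE 0.41, limma adjusted p = 0.0439), a change that rests on an estimated 41, 14, 5 and 0 reads. Over all 11464 tested genes 66 were called lower (0.576%) and 570 higher (4.97%).

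The other 15 tested members did not pass. All 17 estimates were below 0. For the rRNAs the log2 differences were -1.18 (SE 0.37, limma adjusted p = 0.0632) for mt-Rnr1 and -1.01 (SE 0.33, limma adjusted p = 0.0669) for mt-Rnr2. Among complex I genes they were -1.0 for mt-Nd4, -0.85 for mt-Nd2, -0.76 for mt-Nd1, -0.71 for mt-Nd5, -0.45 for mt-Nd6 and -0.19 for mt-Nd3. They were -0.84 for mt-Cytb, -0.72 for mt-Co1, -0.45 for mt-Co2 and -0.82 for mt-Atp6, and for the tRNAs -0.69 for mt-Tp, -0.50 for mt-Tn and -0.45 for mt-Tc. The limma adjusted p of these mRNAs and tRNAs lay between 0.0595 (mt-Atp6) and 0.447 (mt-Tc). At an unadjusted p under 0.05 there were 11 of 17 members, where 44.2% of all tested genes were at that level. Both null G4 libraries lay below both heterozygous libraries for 10 of the 11 mRNAs, 2 of 2 rRNAs and 2 of 4 tRNAs, against 6.50% of all tested genes. Both lay above both heterozygous libraries for 74.7% of all tested genes, so a full separation of the pairs was common. The median difference was -0.76 for the mRNAs and -1.09 for the rRNAs, and 0.36 for all tested genes.

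Scaling touched the direction of mt-Co1 alone among the mRNAs, which was at 0.19 in place of -0.72 with quantile normalization. That method set mt-Rnr2, which ranks at the top of these libraries, to 0.00. With libraries rescaled to nuclear genes the medians were -0.98 for the mRNAs and -1.33 for the rRNAs, the same 2 members were called (mt-Co3 and mt-Tm), and called genes numbered 87 lower (0.721%) and 165 higher (1.37%) of 12066, with a median of 0.17 over all tested genes. With a term for sex, read from Y-linked genes, 0 members passed, the mRNA median was -0.14, mt-Co3 was at -0.79 (limma adjusted p = 0.486), and mt-Nd3, mt-Nd6 and mt-Nd5 turned to 0.16, 0.22 and 0.24. Within the unsorted groups only the reactivated pair differed in Y-linked RNA. This term therefore rests on reactivated replicate 2 against replicate 1 and cannot separate sex from genotype. Members passing numbered 1 without heterozygous replicate 2 or null G4 replicate 1, 0 without null G4 replicate 2, and 8 and 9 without reactivated replicates 1 and 2. Those last fits called 50.6% and 50.4% of all tested genes, of which the genes called lower made up 2.54% and 2.48% of all tested. Without heterozygous replicate 1, mt-Tm was at -1.24 and did not pass (limma adjusted p = 0.0836). The 11 RNAs without a poly(A) tail had a median difference of -0.62, on the same side of 0 as the mitochondrial genes, and sums of 20963 and 28524 RPKM in heterozygous against 11261 to 14141 in null G4 libraries, and 0 of 11 passed. The median of these 11 RNAs was 0.53 in reactivated against null G4 libraries, where the mitochondrial mRNAs were at -0.39 to 0.14. In reactivated against heterozygous libraries it was -0.19, where the mRNAs were at -0.89 to -0.22. The part of these RNAs in the result was not tested.

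Levels in the reactivated libraries lay near those of null G4. Against null G4, 0 of 17 members passed, 0 were at an unadjusted p under 0.05, and 3 of 11464 genes were called (0.0262%). The log2 differences were 0.29 (SE 0.37) for mt-Rnr1 and 0.14 (SE 0.33) for mt-Rnr2. For the mRNAs they were 0.14 for mt-Co3, 0.12 for mt-Nd5, 0.11 for mt-Nd4, 0.10 for mt-Nd2, 0.09 for mt-Atp6, 0.00 for mt-Nd6, -0.03 for mt-Co1 and mt-Nd3, -0.06 for mt-Cytb, -0.10 for mt-Nd1 and -0.39 for mt-Co2, with SE between 0.17 and 0.35. For the tRNAs they were 0.70 (SE 0.41) for mt-Tm, 0.04 for mt-Tp, -0.13 for mt-Tn and -0.26 for mt-Tc. With 2 libraries a group these estimates do not show that the levels were equal, and 16 of the 17 signs turned under at least 1 other setting or left-out library. Reactivated replicate 2, the library with Y-linked RNA, had the higher level of the pair for both rRNAs (mt-Rnr1 at 8915 against 4678 RPKM) and for all mRNAs except mt-Co1 (4415 against 4594 RPKM).

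Against the heterozygous libraries, which also served in the null G4 comparison, the reactivated libraries showed 0 of 17 members passing, where 17 of 11464 genes were called lower (0.148%). At an unadjusted p under 0.05 there were 12 of 17 members, against 14.1% of all tested genes. The log2 differences were -0.88 for mt-Rnr1 and -0.87 for mt-Rnr2. Among the mRNAs they were -0.89 for mt-Cytb, -0.88 for mt-Nd4, -0.86 for mt-Nd1, -0.84 for mt-Co2, -0.77 for mt-Co3, -0.76 for mt-Co1, -0.75 for mt-Nd2, -0.73 for mt-Atp6, -0.59 for mt-Nd5, -0.45 for mt-Nd6 and -0.22 for mt-Nd3. The tRNAs were at -1.16 for mt-Tm, -0.70 for mt-Tc, -0.65 for mt-Tp and -0.64 for mt-Tn. The smallest limma adjusted p was 0.162 (mt-Co3). Both reactivated libraries lay below both heterozygous libraries for 9 of 11 mRNAs, 2 of 2 rRNAs and 2 of 4 tRNAs, against 4.42% of all tested genes. Both lay above both heterozygous libraries for 46.7% of all tested genes.

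**Figure D5:**
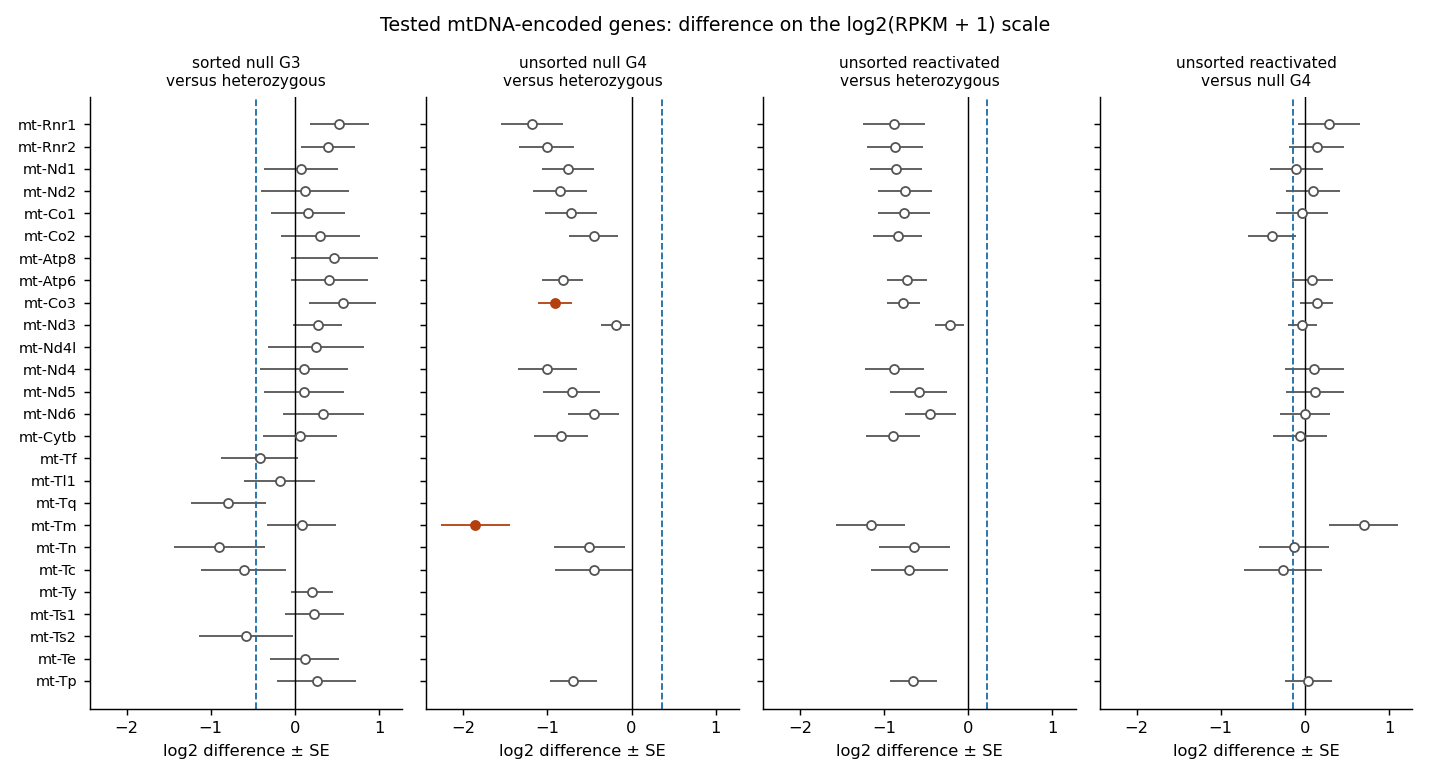
Log2 differences on the log2(RPKM + 1) scale (x axis) with their standard errors are shown for each tested mitochondrial gene in 4 comparisons; filled points passed at an adjusted p under 0.05, the solid line is 0 and the dashed line is the median of all tested genes. The rRNA and mRNA points lie right of the dashed line in sorted null G3 cells, all points lie left of it in the unsorted comparisons with heterozygous cells, and the 2 filled points are mt-Co3 and mt-Tm.

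The null effect in sorted cells minus that in unsorted cells was estimated in a fit of all 12 libraries, in which 25 members were tested. No member passed, 5 were at an unadjusted p under 0.05, and 36 of 11862 genes were called (0.303%), all with negative differences. All 13 mRNA differences were above 0, from 0.18 for mt-Nd4l to 1.48 for mt-Co3 (SE 0.43), except that mt-Co1 was at -0.03 with quantile normalization and mt-Nd4l at -0.44 with the sex term, at 0.00 with a pseudocount of 0.1 and at -0.18 to 0.65 over left-out libraries. The median over all tested genes was -0.73. Between these lay mt-Atp6 (1.23), mt-Nd4 (1.11), mt-Nd2 (0.97), mt-Cytb (0.90), mt-Co1 (0.89), mt-Nd1 (0.83), mt-Nd5 (0.82), mt-Nd6 (0.79), mt-Atp8 (0.76), mt-Co2 (0.75) and mt-Nd3 (0.46). The rRNA differences were 1.71 (SE 0.58) for mt-Rnr1 and 1.40 (SE 0.50) for mt-Rnr2, and of the tRNAs mt-Tm was at 1.94 (SE 0.66), mt-Tp at 0.95, mt-Tq at -0.69 and mt-Ty at 0.20. Genes entered this fit at 1 RPKM or more in at least 2 of the 12 libraries, so some members entered through the sorted set. Among them, mt-Atp8 and mt-Nd4l were at 0.523 to 1.22 and 0 to 0.314 RPKM in unsorted libraries. There mt-Tq and mt-Ty were at 0 to 0.322 and 0 to 0.292 RPKM. At such levels a null effect in the unsorted set can hardly show, so these differences rest mainly on the sorted set. The smallest limma adjusted p was 0.190, so a different response in the sorted and unsorted sets was not shown. Without sorted null G3 replicate 3, 5 members passed, in a fit that called 49 genes higher and 3488 lower (29.9% of those tested). The nulls differ in generation between the sets, so generation and sorting cannot be told apart.

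No listed nuclear partner of the mitochondrial genes was called lower in unsorted null G4 libraries, where only 0.576% of all tested genes were called lower. Of nuclear subunits of the respiratory chain and ATP synthase 0 of 77 passed, and the median differences were 0.56 for 37 complex I genes, 0.59 for 4 complex II genes, 0.52 for 9 complex III genes, 0.40 for 11 complex IV genes and 0.63 for 16 ATP synthase genes, against 0.36 for all tested genes and -0.76 for the mitochondrial mRNAs. Among 74 proteins of the mitochondrial ribosome 2 passed, Mrpl51 (0.95, SE 0.22, limma adjusted p = 0.0470) and Mrpl9 (0.89, SE 0.21, limma adjusted p = 0.0498), both higher, where 4.97% of all tested genes were called higher, and the median was 0.57. Of 8 regulators of mitochondrial biogenesis 1 passed, Gabpa, a subunit of the nuclear factor NRF-2, at 0.66 (SE 0.16, limma adjusted p = 0.0498), also higher. None of the 3 passed after rescaling to nuclear genes (limma adjusted p = 0.166, 0.194 and 0.214) or with the sex term (0.648, 0.632 and 0.501). Among 16 genes of mtDNA transcription and replication and 28 of mitochondrial RNA processing 0 passed, with medians of 0.30 and 0.45, and 0 of 17 mitochondrial tRNA synthetases (0.41) and 0 of 11 chaperones and proteases (0.60) passed.

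Of the nuclear copies of mtDNA, Gm13340, which resembles mt-Co1, was the 1 of 3 tested that passed in the same comparison. Its levels of 5.46 and 7.14 RPKM in the heterozygous pair stood against 3.71 and 2.78 RPKM in the null G4 pair, and it fell by 0.78 (SE 0.18, limma adjusted p = 0.0470), near the -0.72 of mt-Co1. This call was lost without the low-value filter (limma adjusted p = 0.166) and with the sex term (-0.95, limma adjusted p = 0.309). Gm20594 was at -0.65 (limma adjusted p = 0.0852) and Gm10222 at -0.40 (limma adjusted p = 0.159), and neither passed. Among all tested genes 0.576% were called lower and 4.97% higher in that comparison. Of 10 cycling cell markers 7 were called higher in the same libraries, and 0 with libraries rescaled to nuclear genes. Of 10 tested markers of small intestinal enterocytes 1 was called lower, Rbp2, and the whole list summed to 102 to 312 RPKM in the heterozygous pair and 78.3 to 85.6 RPKM in the null G4 pair. Of 11 goblet cell marker rows 2 were called lower, Clca3 (-2.49, limma adjusted p = 0.00132) and Fcgbp (-1.17, limma adjusted p = 0.0398). The median of all 11 was 0.00. Of 5 tuft cell markers 1 was called lower, Sh2d6 (-0.75, limma adjusted p = 0.0321), with a median of -0.48 over the 5. Of 7 colonocyte markers 1 was called higher, the water channel gene Aqp4 (1.20, limma adjusted p = 0.0329). The median of the 7 was -0.52, below the 0.36 of all tested genes, and 0 were called with libraries rescaled to nuclear genes. Erythroid markers summed to 5.08 to 23.1 RPKM in the heterozygous and 2.75 to 2.91 RPKM in the null G4 pair, and 0 of 2 tested passed. The part of these markers in the result was not tested. In sorted cells the medians for the 5 respiratory complexes were -0.38 to -0.30 and 0 of 76 passed, where the median of all tested genes was -0.46. In the reactivated against null G4 comparison 0 of 77 subunits passed, with 5 medians of -0.22 to -0.16.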

How the data were processed

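RNA was sequenced in 12 libraries, with the Qiagen RNeasy and TruSeq RNA kits per the labels' protocols. The values are RPKM, deposited by the authors as 1 table, with 0 columns of other samples. STAR 2.3.0e and the mm10 genome appear, with no role stated, per the submitters' processing notes. Gene annotation, read length, strand use and the treatment of reads with several matches are not stated in the labels or the table. Depth is not given either: steps between low values imply 74900000 to 103000000 reads in unsorted and, less surely, 150000000 to 247000000 in sorted libraries.

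Libraries are labelled biological replicates. If some share an animal, p-values measure only the spread between samples. Genes that reached 1 RPKM in 3 or more sorted or 2 or more unsorted libraries entered limma 3.58.1 (R 4.3.3) on log2(RPKM + 1), which understates changes of low genes, with eBayes, a mean trend and Benjamini-Hochberg adjustment over all genes tested. The unsorted groups shared 1 fit, and a fit of all 12 libraries gave the difference of null effects. Shares were compared by exact permutation tests (scipy 1.17.1). Scripts ran in Python 3.11.15 with pandas 2.3.3, numpy 2.4.6, Biopython 1.88 and matplotlib 3.10.9 and were tested on simulated data. Every mRNA and rRNA was named, and of tRNAs and other lists up to 4 tested members of smallest p. Further tRNAs were named after their values were seen, for their level. Alternatives were a pseudocount of 0.1, no filter, quantile and median scaling, rescaling without mitochondrial rows, a replicate block, a sex term, other denominators and leaving out each library. The genes and lists were chosen with earlier results of these data known. Sequences and positions are from GENCODE M21 (GRCm38).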

Additional observations from a re-analysis of the deposited data

How the results depend on the processing

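Members passing in unsorted null G4 against heterozygous libraries numbered 2 and changed to 1 with a pseudocount of 0.1, 0 without the filter, 1 with median scaling, 0 with the sex term and 0 to 9 when 1 library was left out. The fits that gave 8 and 9 called 50.6% and 50.4% of all tested genes (2.54% and 2.48% lower), against 5.55% (0.576% lower) with all libraries. With median scaling the 1 was mt-Tp (-1.12, limma adjusted p = 0.0464), and quantile normalization gave mt-Co3 and mt-Tp (0.0480). For reactivated against heterozygous libraries the count was 0 to 5 over left-out libraries, with 5 without reactivated replicate 2, where 20.6% of all tested genes were called, and for the difference of null effects 0 to 5. It was 0 in sorted cells and for reactivated against null G4 in every setting run. The causes were not tested. The replicate number as a block gave 5 members for null G4 and 1 for reactivated against heterozygous libraries, in fits that called 11.5% and 2.3% of all tested genes, against 5.55% and 1.27% without the block. The labels share numbers only, and deviations of same-numbered libraries correlated at -0.19 to 0.05 in the sorted and -0.12 to 0.22 in the unsorted set. With 2 libraries in an unsorted group, both replicates must give the same correlation. Whether the numbers pair libraries was therefore not settled.

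The protein-coding share difference was 2.20 percentage points of estimated reads, 7.26 of the sum without rRNA and 1.03 to 1.89 over left-out libraries. That of tRNAs was -7.29e-04, -0.0224 and -0.0705 to -0.0502, and that of rRNAs 32.6 to 39.3 over left-out libraries.

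Of 1320 values of single genes, 72 turned in sign, none with an adjusted p under 0.05. In sorted cells mt-Tc was at 0.04 with median scaling, and mt-Nd4l at -0.01 and mt-Cytb at 0.00 with the sex term. For null G4 against heterozygous libraries mt-Co1 was at 0.19 with quantile normalization, and mt-Nd3, mt-Nd6 and mt-Nd5 at 0.16, 0.22 and 0.24 with the sex term. For the difference of null effects mt-Nd4l was at 0.00 with a pseudocount of 0.1 and -0.44 with the sex term, mt-Ty at -0.16 with the sex term and mt-Co1 at -0.03 with quantile normalization. For reactivated against null G4, median scaling gave mt-Tn 0.04, mt-Nd3 0.07, mt-Nd1 0.08, mt-Cytb 0.12, mt-Co1 0.15 and mt-Nd6 0.18. Quantile normalization gave mt-Rnr1 -0.29, mt-Nd3 0.04, mt-Tn 0.04 and mt-Nd6 0.16, and rescaling without mitochondrial rows gave mt-Nd6 0.03. The sex term gave mt-Rnr2 -0.14, mt-Rnr1 -0.17, mt-Atp6 -0.25, mt-Nd2 -0.30, mt-Nd4 and mt-Nd5 -0.36, mt-Tc 0.19 and mt-Tn 0.24. In this comparison only reactivated replicate 2 carried Y-linked RNA, so the sex term gives the same estimates as leaving that library out. Such a turn is counted under both settings.

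Over left-out libraries the sorted difference ranged from -0.04 to 0.47 for mt-Co1, -0.12 to 0.34 for mt-Cytb, -0.08 to 0.27 for mt-Nd1, -0.19 to 0.51 for mt-Nd2, -0.17 to 0.52 for mt-Nd4, -0.11 to 0.73 for mt-Nd4l, -0.11 to 0.47 for mt-Nd5 and -0.98 to 0.09 for mt-Ts2. For null G4 against heterozygous libraries it ranged from -0.91 to 0.02 for mt-Co2 and -1.05 to 0.16 for mt-Tc, and for the difference of null effects from -0.18 to 0.65 for mt-Nd4l. For reactivated against null G4 it ranged from -0.25 to 0.44 for mt-Atp6, -0.85 to 0.07 for mt-Co2, -0.03 to 0.32 for mt-Co3, -0.36 to 0.25 for mt-Cytb, -0.24 to 0.04 for mt-Nd1, -0.30 to 0.50 for mt-Nd2, -0.20 to 0.15 for mt-Nd3, -0.36 to 0.59 for mt-Nd4 and mt-Nd5 and -0.34 to 0.34 for mt-Nd6. There mt-Rnr1 ranged from -0.17 to 0.76, mt-Rnr2 from -0.14 to 0.43, mt-Tc from -0.71 to 0.19, mt-Tn from -0.60 to 0.33 and mt-Tp from -0.21 to 0.28. With 1 library left in a group, that library is assumed to vary like the other groups.

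The call of mt-Co3 in null G4 against heterozygous libraries was lost without the filter (limma adjusted p = 0.165) and with median scaling (0.0512), and that of mt-Tm without the filter (0.176), with a pseudocount of 0.1 (0.0530) and with quantile (0.101) or median scaling (0.0915). The mt-Co3 call was also lost when heterozygous replicate 2 or either null G4 replicate was left out. That of mt-Tm was lost without heterozygous replicate 1 or null G4 replicate 2. Few reads limit the tRNAs: mt-Tm rests on at most 41 estimated reads in an unsorted library.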
